A study of Mus musculus with 12 samples.

Results

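The mouse genes Aqr, Dhx9, Ddx41, Ddx5, Ddx21, Top1, Top3b, Srsf1 and Xrn2 encode proteins that keep nascent RNA from staying paired with its DNA template or remove it once it has paired. They were taken by symbol, 9 of the 25162 genes in the table. Of the 9, 8 had a mean of at least 1 FPKM (fragments per kilobase of transcript, scaled to sequencing depth) over the table's 6 columns and were compared between groups, as were 10110 genes in all. Dhx9 had a mean of 0.153 FPKM and was not compared between groups, but is kept in the levels, promoter windows and nearest profiles.

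The study measured poly(A) RNA by Smart-seq2 in mouse oocytes with and without Rnaseh1, the gene of ribonuclease H1, at 3 steps of oocyte growth named NGO, GO and FGO. By common usage NGO is a non-growing oocyte, GO a growing one and FGO one that has finished growth. The 3 KO groups are headed Rnaseh1 oo-/-, a deletion in oocytes, and the 3 WT groups are headed Rnaseh1 fl/fl, the floxed allele without the deletion. Each group had 2 samples of 10 oocytes, lysed with 100 pg of ERCC spike-in RNA, and the deposited table holds 1 column per group. The column headers name the floxed allele for WT and do not say whether the KO allele was made from it. The Cre driver, the part of the gene deleted, the strain and the age of the animals were not stated in the labels. With 1 column for a genotype and stage there is no replicate check, so no value below carries an error or a p-value. Differences are of log2(FPKM + 1), which understates the change of low genes, and a gene is called higher or lower at 1 or more, a 2-fold change on that scale.

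An R-loop is a stretch of RNA paired with one DNA strand while the other DNA strand is left single. It forms behind RNA polymerase, and ribonuclease H1 degrades its RNA. The genes described here act at other points. Helicases unwind the hybrid (Aqr, Dhx9, Ddx5, Ddx21 and Ddx41), topoisomerases relax the underwound DNA in which it forms (Top1 and Top3b), Srsf1 binds nascent RNA as a splicing factor, and Xrn2 degrades the RNA left after cleavage at the end of a gene. A growing oocyte transcribes heavily and stores its RNA, and transcription stops by the end of growth.

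Stretches of promoter are shown for 2 of the genes that stood higher in KO GO and FGO oocytes after rescaling (Top3b and Ddx41) and for the 2 that stood lower at both stages (Top1 and Srsf1). Each is the 200 bases from 250 to 51 bases before a start that RefSeq's promoter table gives for the gene, on the gene's strand, in build GRCm38.p6, and all sequences are from RefSeq. The Srsf1 window lies inside the gene's full RefSeq span, which opens further upstream. Capitals mark a GC box (GGGCGG) or a CCAAT box (CCAAT), read on either strand.
Top3b, chr16:16870486-16870685, plus strand: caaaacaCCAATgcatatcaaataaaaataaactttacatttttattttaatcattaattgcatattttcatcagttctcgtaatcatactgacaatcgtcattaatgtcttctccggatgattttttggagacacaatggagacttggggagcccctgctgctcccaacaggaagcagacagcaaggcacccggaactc
Ddx41, chr13:55536709-55536908, minus strand: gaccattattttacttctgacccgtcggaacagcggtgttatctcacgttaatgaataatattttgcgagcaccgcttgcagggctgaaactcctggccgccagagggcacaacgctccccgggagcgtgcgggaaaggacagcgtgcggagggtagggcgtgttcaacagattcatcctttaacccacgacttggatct
Top1, chr2:160645647-160645846, plus strand: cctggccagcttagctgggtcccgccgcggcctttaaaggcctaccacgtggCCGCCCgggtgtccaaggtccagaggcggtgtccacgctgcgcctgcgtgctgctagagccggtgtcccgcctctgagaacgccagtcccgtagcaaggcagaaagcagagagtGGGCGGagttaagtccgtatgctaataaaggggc
Srsf1, chr11:88047123-88047322, plus strand: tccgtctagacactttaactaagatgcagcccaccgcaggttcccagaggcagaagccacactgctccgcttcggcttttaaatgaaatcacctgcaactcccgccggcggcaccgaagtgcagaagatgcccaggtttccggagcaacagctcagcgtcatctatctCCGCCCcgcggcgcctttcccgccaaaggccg
The Top3b window held 4 CpG and 38.5% G or C, the Ddx41 window 15 CpG and 54% G or C. The Top1 and Srsf1 windows held 16 CpG each, at 64.5% and 59.5% G or C. Over the first listed windows of 27025 genes the median was 4 CpG, with quartiles of 1 and 11, and 51.5% G or C. Aqr, with 3 CpG, and Top3b were the members at or under that median, and the other 7 members had 11 to 19. All counts take the first listed window of each gene. Ddx5 has 2 further windows, with a GC box in one and an ETS site in the other. A GC box was found in the first window of 3 of the 9 members and in 24.5% of all genes' first windows, and a CCAAT box in 2 of 9 and in 28.9%. A TATA box (TATAAA) was found in no member and in 9.5% of them all, and an ETS site (CCGGAAG) in 1 member and in 4%. All 4 motifs were searched on both strands, and a missing match says only that the letters are not in that window.

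Rnaseh1 stood at 0.931, 3.10 and 8.02 FPKM in KO NGO, GO and FGO oocytes, against 8.61, 27.8 and 29.1 FPKM in WT. KO columns thus held 10.8%, 11.2% and 27.6% of the WT level as deposited, and 12.3%, 11.8% and 16.0% after the rescaling described next. The columns, adjusted to the spike-in, differ in overall level, and rescaling takes the shift of the median gene out, whatever its source. Median-ratio factors, each column's median ratio to the mean column over compared genes above 0 in all 6, were 0.453, 1.22 and 2.26 in KO NGO, GO and FGO, against 0.514, 1.29 and 1.31 in WT. As deposited, the median KO minus WT difference of log2(FPKM + 1) over compared genes was 0.72 at FGO. That value includes the added 1, which the factors do not. Each difference is given as deposited and after division by these factors (rescaled). Read depth is not known from the table. Of 12 oocyte markers, 12 stood at 1 FPKM or more in every column except WT FGO, where Sohlh1 was listed at 0. Markers of granulosa cells, which surround the oocyte, summed to 7.97, 20.3 and 100.3 FPKM in KO, against 4.83, 27.9 and 48.6 FPKM in WT. At FGO 10 of the 20 stood at 1 FPKM or more in KO and 7 in WT, and 17 of the 20 stood higher in KO, as did most genes at that stage. Esr2 had 37.3 FPKM in KO FGO and 21.3 FPKM in WT FGO oocytes, Inha 9.32 and 1.17 FPKM, and Gja1 6.96 and 0.965 FPKM, while Foxl2 was at 0 in KO and 0.013 FPKM in WT. Sums of 8 theca and stroma markers ran to at most 1.77 FPKM in KO columns and 4.25 FPKM in WT columns, and of 8 immune, endothelial and blood markers to at most 17.1 and 9.94 FPKM. The part of other cells in the differences below was not tested. Each sample held 10 oocytes, and a difference in RNA per oocyte and an effect of the spike-in adjustment cannot be told apart here.

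Together the 9 genes summed to 100.1, 298 and 519 FPKM in KO NGO, GO and FGO oocytes, against 105, 271 and 262 FPKM in WT. The order of levels was led by Ddx5, then Top1, and closed by Dhx9 in all 6 columns. As deposited, each of the 9 was highest at FGO among the KO stages, as were 89.4% of all compared genes, and after rescaling 4 of the 9 were (Ddx41, Top1, Top3b and Xrn2), as were 42.4% of all. In WT, Ddx41, Top1, Top3b and Xrn2 were highest at FGO as deposited, as were 54.5% of all genes, and the other 5 at GO. Over all 6 columns as deposited, 7 of the 9 were highest in KO FGO oocytes, as were 80.5% of all genes, and Ddx21 and Srsf1 in WT GO oocytes. After rescaling 3 of the 9 were highest in KO FGO oocytes (Ddx41, Top3b and Xrn2), against 16.8% of all genes. These shares are over the compared genes, while the 9 include Dhx9, which was not compared. Of the 8 compared members, 6 were highest in KO FGO oocytes as deposited and 3 after rescaling.

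**Figure D1:**
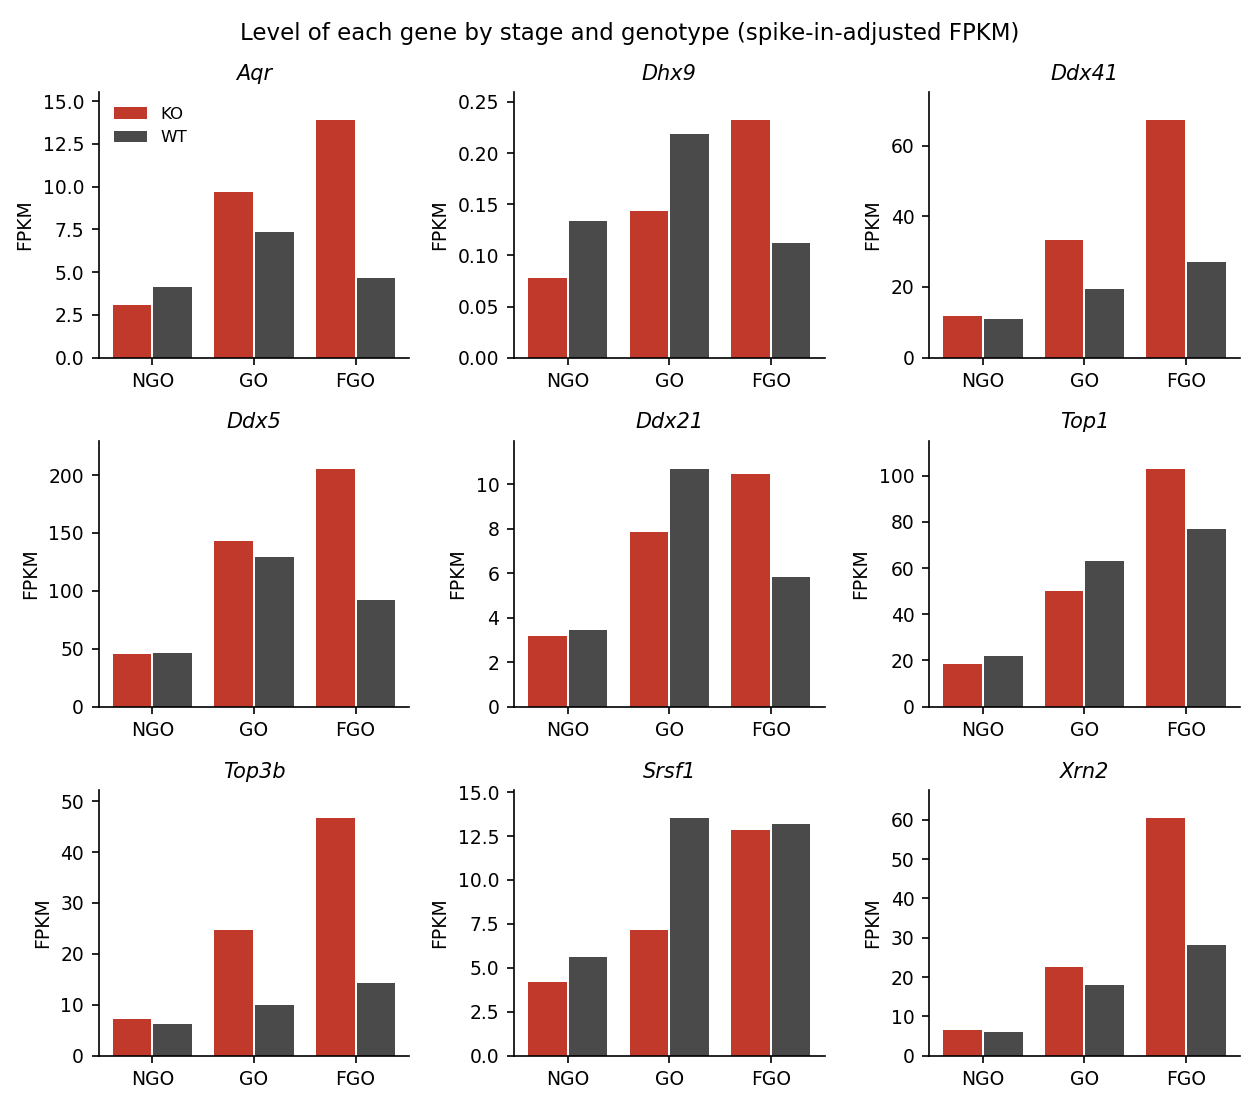
Level of each of the 9 genes in FPKM as deposited, on an axis of its own from 0, at NGO, GO and FGO, with a bar for KO beside a bar for WT. Each bar is 1 column of the table. On this scale all 9 genes are highest at FGO among the KO stages, and Dhx9 is at most 0.232 FPKM.

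Top3b, topoisomerase III beta, is a type IA enzyme that acts on single strands of DNA and RNA. It spans chr16:16870722-16892986 (plus strand, GRCm38.p6). Its level was 7.21, 24.8 and 46.6 FPKM in KO NGO, GO and FGO oocytes, against 6.17, 9.98 and 14.2 FPKM in WT. KO was above WT at each stage, and the KO GO level was above each of the WT levels. As deposited the KO minus WT difference was 0.19, 1.23 and 1.64 over the 3 stages, and after rescaling 0.38, 1.28 and 0.86. At GO, 25 of the 10110 compared genes had a larger rescaled difference, which puts Top3b near the top of the genes compared. The gene Vpreb1 overlaps it by 108 bases on the opposite strand and stood at no more than 0.557 FPKM. The labels do not say whether strand was kept, so reads in that stretch cannot be assigned to one of the genes.

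Top3b works in the cell with the scaffold protein Tdrd3. Tdrd3 stood at 32.6, 73.8 and 135 FPKM in KO, against 33.7, 57.0 and 78.4 FPKM in WT. Its difference was 0.44 at GO and -0.002 at FGO after rescaling, against 1.28 and 0.86 for Top3b. Top3a, the paralog that dissolves joined DNA molecules with Blm, had 0.737, 3.44 and 6.82 FPKM in KO, against 0.534, 1.92 and 2.07 FPKM in WT. Top3a was thus higher in KO at all 3 stages, by 0.37, 0.61 and 0.64 after rescaling. Top1mt, the mitochondrial type IB enzyme, stood at 0.164, 0.198 and 1.36 FPKM in KO, against 0.252, 0.305 and 0.291 FPKM in WT, and was under the limit for comparison.

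Top1, topoisomerase I, relaxes supercoils around the moving polymerase. It spans chr2:160645897-160722764 (plus strand). Its level was 18.5, 50.1 and 103 FPKM in KO NGO, GO and FGO oocytes, against 22.0, 63.2 and 77.0 FPKM in WT. KO was below WT at NGO and GO and above it at FGO as deposited, by -0.24, -0.33 and 0.41. After rescaling the differences were -0.07, -0.25 and -0.37, so the direction at FGO depends on the scale of the columns. None reached 2-fold.

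Ddx41 is a DEAD-box protein found with the spliceosome and also described as a sensor of DNA in the cytoplasm. It spans chr13:55530410-55536658 (minus strand), and the antisense gene Gm46416 overlaps it by 630 bases. Its level was 11.7, 33.2 and 67.1 FPKM in KO NGO, GO and FGO oocytes, against 10.9, 19.4 and 27.1 FPKM in WT. KO was close to WT at NGO and above it at GO and FGO. The difference was 0.09, 0.75 and 1.28 as deposited, and 0.27, 0.81 and 0.50 after rescaling.

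Aqr, aquarius, is the helicase of the intron-binding complex of the spliceosome. It spans chr2:114101161-114175339 (minus strand). Its level was 3.09, 9.68 and 13.9 FPKM in KO NGO, GO and FGO oocytes, against 4.16, 7.37 and 4.66 FPKM in WT. KO was below WT at NGO and above it at GO and FGO. As deposited the highest level was at FGO in KO and at GO in WT. After rescaling it was at GO in KO and at NGO in WT. The difference was -0.34, 0.35 and 1.39 as deposited, and -0.22, 0.41 and 0.65 after rescaling. Aqr thus changed side between NGO and the later stages on both scales. The other 4 genes of its complex, Xab2, Isy1, Ppie and Zfp830, held no call in KO against WT at any stage. At FGO 25.8% of all genes were called higher as deposited and 1.68% after rescaling. At GO 0.95% and 1.05% were, so 4 genes are too few to set against such shares. The median differences of these 4 were -0.09, -0.19 and -0.04 after rescaling, below those of all compared genes at 0.01, -0.03 and 0.02. Ppie, a peptidyl-prolyl isomerase, had 14.9 FPKM in KO GO and 60.1 FPKM in KO FGO oocytes, against 19.8 and 43.0 FPKM in WT.

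Ddx5 (p68) is an abundant DEAD-box protein of splicing, microRNA processing and transcription. It spans chr11:106780355-106789185 (minus strand). Its level was 45.7, 143 and 205 FPKM in KO NGO, GO and FGO oocytes, against 46.4, 129 and 91.8 FPKM in WT. KO and WT differed little at NGO and GO, and KO was above WT at FGO. The difference was -0.02, 0.14 and 1.15 as deposited and 0.16, 0.22 and 0.36 after rescaling. A processed pseudogene of Ddx5, Gm12183, is 98.5% identical to it over 1848 bases, or 51.9% of its longest coding transcript, and has no line in the table. The level of Ddx5 is uncertain to the extent that reads were split between the copies. Its close paralog Ddx17 (p72) stood at 2.25, 2.47 and 2.57 FPKM in KO, against 2.36, 3.14 and 2.51 FPKM in WT, and so differed far less between stages than Ddx5.

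Ddx21 is a DEAD-box helicase of the nucleolus that acts in ribosomal RNA synthesis. It spans chr10:62580247-62602298 (minus strand). Its level was 3.18, 7.83 and 10.4 FPKM in KO NGO, GO and FGO oocytes, against 3.45, 10.7 and 5.81 FPKM in WT. KO was lower at GO and higher at FGO as deposited, with differences of -0.09, -0.40 and 0.75. After rescaling they were 0.06, -0.32 and 0.04. A pseudogene, Gm37197, matches 398 bases of Ddx21 at 95.2% identity. Ddx50, its nucleolar paralog, stood higher, at 11.1, 42.3 and 84.9 FPKM in KO, against 15.2, 62.3 and 45.5 FPKM in WT. The rescaled differences of Ddx50 were -0.26, -0.47 and 0.11, against 0.06, -0.32 and 0.04 for Ddx21.

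Dhx9, RNA helicase A, unwinds RNA-DNA hybrids and RNA duplexes and spans chr1:153455756-153487688 (minus strand). It was listed at 0.0777, 0.144 and 0.232 FPKM in KO NGO, GO and FGO oocytes, against 0.134, 0.218 and 0.112 FPKM in WT. All 6 values were far under 1 FPKM, and a low transcript level and a failed estimate cannot be told apart in this table. Dhx36, another DEAH-box helicase and one that opens G-quadruplexes, stood at 1.87, 5.17 and 7.39 FPKM in KO, against 2.43, 9.11 and 5.43 FPKM in WT.

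Srsf1 is an SR protein that binds exons and nascent RNA. It spans chr11:88046499-88053757 (plus strand), with the antisense gene Gm11508 over 634 bases. Its level was 4.18, 7.18 and 12.9 FPKM in KO NGO, GO and FGO oocytes, against 5.62, 13.5 and 13.2 FPKM in WT. KO was lower at NGO and GO and near WT at FGO. The difference was -0.35, -0.83 and -0.03 as deposited and -0.22, -0.74 and -0.73 after rescaling. Of the 10110 compared genes, 448 at GO and 340 at FGO had a lower rescaled difference, so Srsf1 stood toward the low end of the table at both stages without reaching 2-fold. Srsf9, the SR protein nearest to it in sequence, was lower in KO at GO as well, with 8.71, 12.8 and 13.2 FPKM in KO, against 12.5, 23.5 and 9.34 FPKM in WT. Its rescaled differences were -0.32, -0.74 and -0.25.

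Xrn2 is the nuclear 5' to 3' exoribonuclease that degrades RNA downstream of the cleavage site and helps the polymerase to stop. It spans chr2:147012755-147078000 (plus strand). Its level was 6.49, 22.4 and 60.3 FPKM in KO NGO, GO and FGO oocytes, against 5.97, 17.9 and 28.1 FPKM in WT. KO was above WT at each stage. The difference was 0.10, 0.31 and 1.07 as deposited, and 0.28, 0.38 and 0.30 after rescaling, beside the shift of 0.72 in the median gene at FGO as deposited. Xrn1, the cytoplasmic enzyme, stood at 0.560, 1.91 and 3.25 FPKM in KO, against 0.608, 1.75 and 1.41 FPKM in WT.

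At NGO, no member was called in KO against WT on either scale. Of all compared genes at NGO, 0.0297% were called higher and 0.326% lower as deposited, and 0.129% and 0.356% after rescaling. At GO 1 of 8 members, Top3b, was called higher on both scales and none lower, where 0.95% of all genes were higher and 2.03% lower as deposited. After rescaling those shares at GO were 1.05% and 1.28%. At FGO, 5 of 8 members were called higher as deposited (Aqr, Ddx41, Ddx5, Top3b and Xrn2), where 25.8% of all genes were higher, and none was called lower, where 0.158% were. After rescaling no member was called at FGO, where 1.68% of all genes were higher and 0.94% lower. The median member stood at 0.11, 0.30 and 0.33 after rescaling at NGO, GO and FGO, against 0.01, -0.03 and 0.02 for all compared genes. Members above the median gene numbered 5, 5 and 6 of 8. All 8 fell in the class of 6003 genes with a longest transcript of 2001 to 5500 bases, whose own rescaled medians were 0.04, 0.06 and 0.09. In the 502 genes of up to 1000 bases the medians were -0.23, -0.41 and -0.36, and in the 1608 genes over 5500 bases they were 0.05, -0.07 and -0.05. The shortest genes thus stood lowest, and the part of transcript length in the members' values was not tested.

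**Figure D2:**
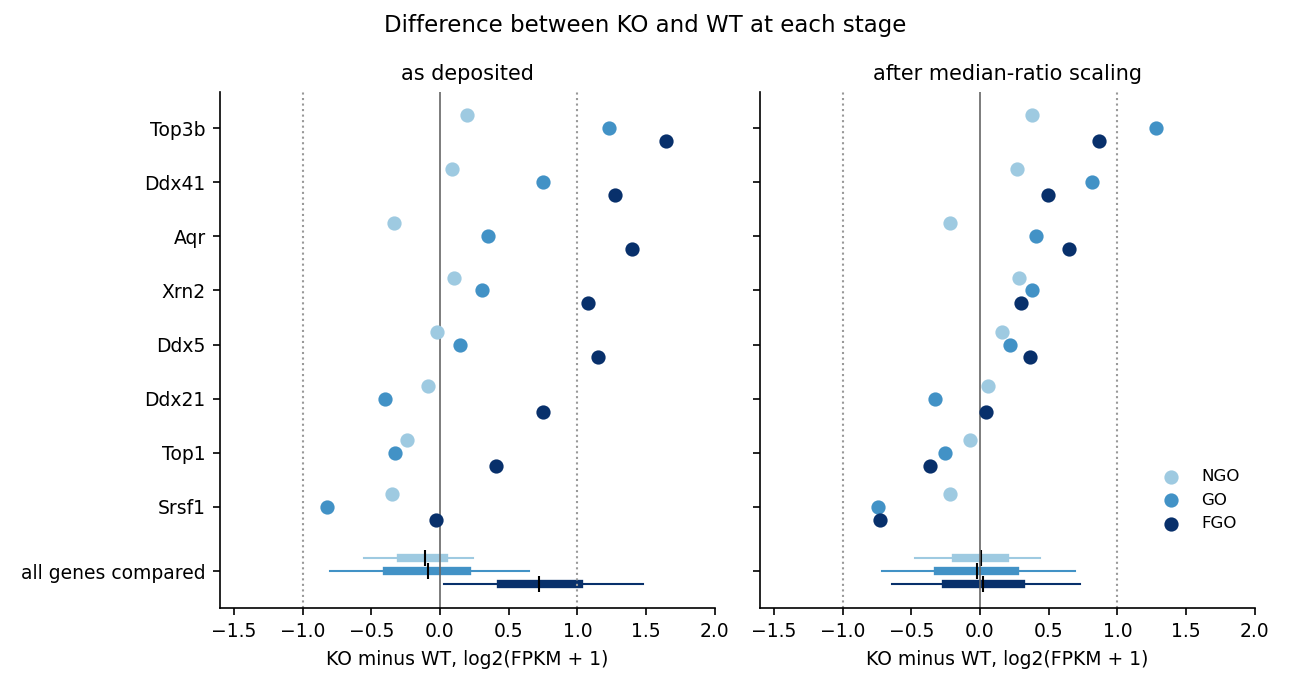
KO minus WT difference of log2(FPKM + 1) for each compared member at NGO, GO and FGO, as deposited and after rescaling, with dotted lines at the 2-fold limits. The bottom rows give all compared genes, with a tick at the median, a thick bar between the quartiles and a thin line from the 5th to the 95th percentile. At FGO 5 members lie past the upper limit as deposited and none after rescaling, while Top3b lies past it at GO on both scales.

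Ratios of 2 members in the same column do not depend on the scale of the columns. The pairs were chosen after their values were seen. The Top3b to Top1 ratio was 0.390, 0.494 and 0.454 in KO NGO, GO and FGO oocytes, against 0.280, 0.158 and 0.185 in WT. It was therefore 1.39, 3.13 and 2.46 times as high in KO, and each KO value was above each WT value. Ddx41 to Top1 was 0.632, 0.663 and 0.653 in KO, against 0.496, 0.306 and 0.352 in WT, nearly constant over the KO stages and lowest at GO in WT. Aqr to Srsf1 was 0.738, 1.35 and 1.08 in KO, against 0.741, 0.546 and 0.353 in WT. This pair was equal between genotypes at NGO and then parted, to 2.47 and 3.05 times the WT ratio. Xrn2 to Top1 was higher at each later stage in both genotypes, with 0.351, 0.448 and 0.588 in KO, against 0.271, 0.284 and 0.365 in WT. Such a ratio shows unequal change, not which of its 2 genes moved.

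**Figure D3:**
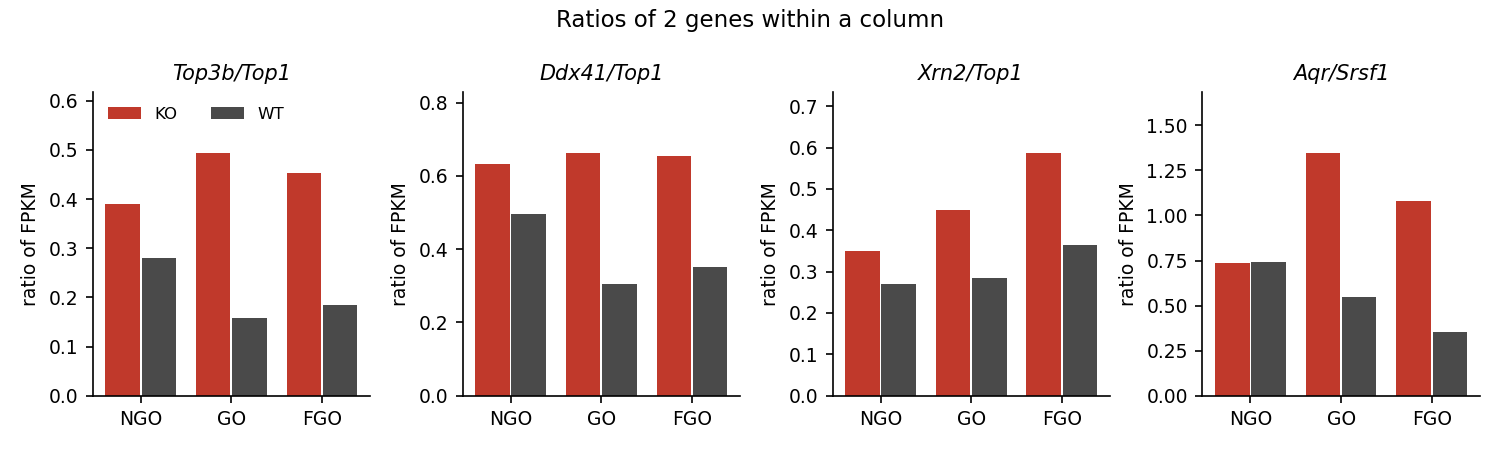
Ratio of the FPKM of 2 genes within the same column at NGO, GO and FGO, with a bar for KO beside a bar for WT and axes from 0. Top3b to Top1 and Ddx41 to Top1 are higher in KO at all 3 stages, and Aqr to Srsf1 parts from equal values at NGO.

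From NGO to GO in KO oocytes, 7 of 8 members were called higher as deposited, all but Srsf1, where 57.6% of all compared genes were higher, and none lower, where 0.089% were. Xrn2 and Top3b had the largest values, 1.65 each, and Srsf1 the smallest at 0.66, which turned to -0.58 after rescaling. In WT over the same step, 5 of 8 were called higher (Ddx5, Ddx21, Top1, Srsf1 and Xrn2), where 54.8% of all genes were, and none lower, where 0.129% were. Ddx41 stood higher at GO by 1.43 in KO and 0.77 in WT, and Top3b by 1.65 in KO and 0.62 in WT. From GO to FGO in KO, Top1 (1.02) and Xrn2 (1.39) were called higher, where 39% of all genes were, and none lower, where 0.514% were. In WT no member was called over that step, where 6.5% of all genes were higher and 9.22% lower. The lowest WT values over that step were -0.78 for Ddx21 and -0.57 for Aqr, while both stood higher at FGO than at GO in KO as deposited, by 0.37 and 0.48. After rescaling both were lower at FGO in KO too, at -0.40 and -0.32, against -0.77 and -0.56 in WT. After rescaling no member was called in any of the 4 steps, where 7.96% of all genes (KO) and 9.34% (WT) were called in either direction from NGO to GO, and 10.1% (KO) and 14.1% (WT) from GO to FGO. Rescaled, the steps of Top3b were 0.33 and 0.03 in KO, against -0.57 and 0.44 in WT, so its WT level was lowest at GO relative to the median gene. Ddx41 had the same form in WT, with 0.07 and 0.13 in KO, against -0.48 and 0.44 in WT.

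Of 25 other helicases tied to R-loops, 22 were compared. Ddx47, a nucleolar DEAD-box protein, was lower in KO at GO, with 21.4 FPKM in KO and 52.3 FPKM in WT, and higher at FGO, with 73.0 FPKM in KO and 9.70 FPKM in WT. Its rescaled differences of -1.17 and 1.98 were the only calls of the list on that scale. After rescaling 1.28% of all genes were called lower at GO and 1.68% higher at FGO. As deposited, Ddx47 was the 1 of 22 called lower at GO, where 2.03% of all genes were. At FGO 6 of 22 were called higher as deposited, near the 25.8% of all genes. Fancm and Ddx27 had the largest NGO differences, 0.45 each after rescaling. Next to Ddx47 were Recql at GO (0.79) and Ighmbp2 at FGO (0.77). The list's rescaled medians were 0.05, 0.20 and -0.03.

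Among 10 other topoisomerases and their partners, 9 were compared. Top3a and Tdp1, which repairs trapped Top1 complexes, were called higher at FGO as deposited, 2 of 9, where 25.8% of all genes were. After rescaling none of the 9 was called at FGO, where 1.68% of all genes were higher and 0.94% lower. Tdp1 had 24.5 FPKM in KO GO and 60.6 FPKM in KO FGO oocytes, against 15.4 and 27.3 FPKM in WT. Top2a had the largest rescaled difference of the list at NGO, 0.45. The rescaled medians were 0.12, 0.34 and 0.06. Of 18 other SR proteins and their kinases, 17 were compared. Clk4, a kinase of SR proteins, was the 1 called, at FGO as deposited, where 25.8% of all genes were called higher. It had 5.91 FPKM in KO and 1.57 FPKM in WT. After rescaling its difference was 0.72, under the limit, where 1.68% of all genes were called higher. Srsf2 was lower in KO at NGO by 0.95 as deposited, just short of the limit, with 17.8 FPKM in KO and 35.3 FPKM in WT. After rescaling the difference of Srsf2 was -0.79. Clk2 was lower in KO at GO, with 7.15 FPKM in KO and 12.6 FPKM in WT, a rescaled difference of -0.65. At FGO it had 11.2 FPKM in KO and 12.5 FPKM in WT. Its rescaled difference there was -0.83, the largest in size of this list and below that of Srsf1. The rescaled medians of this list were -0.05, 0.00 and 0.04, against -0.22, -0.74 and -0.73 for Srsf1.

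Of 24 genes of transcription termination, cleavage of the 3' end and Xrn2 partners, 23 were compared. At FGO 7 of 23 were called higher as deposited, where 25.8% of all genes were, and none after rescaling, where 1.68% were, when Cstf2, a cleavage stimulation subunit, came nearest at 0.97. Cstf2 had 16.4 FPKM in KO FGO oocytes and 4.18 FPKM in WT. Nkrf, a nucleolar partner of Xrn2, was called lower at GO as deposited, with 1.22 FPKM in KO and 3.60 FPKM in WT. Its difference was -0.92 at GO and -0.88 at FGO after rescaling, the opposite side from Xrn2. Cpsf2 (0.54) and Cstf2 (0.45) had the largest rescaled differences at NGO, and Cstf1 stood at 0.65 at GO. The list's rescaled medians were 0.09, 0.15 and 0.12, against 0.38 for Xrn2 at GO and 0.30 at FGO.

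The DEAD-box and DEAH-box family, to which 4 members belong, had 53 genes in the table and 46 compared. Ddx5 was the highest of them by level. Without the members, 43 were compared, with rescaled medians of 0.09, 0.18 and 0.23. As deposited, 19 of the 43 were called higher in KO at FGO, where 25.8% of all genes were, and after rescaling 2, Ddx47 and Ddx4, where 1.68% were. At NGO the largest rescaled differences were 0.56 for Ddx59 and 0.55 for Dhx34. Ddx4, the germ cell helicase also called Vasa, had 123 FPKM in KO GO and 80.1 FPKM in KO FGO oocytes, against 72.8 and 15.4 FPKM in WT. Dhx16, a spliceosome helicase, was called higher at GO on both scales, with 9.61 FPKM in KO and 4.16 FPKM in WT. It was the 1 of 43 called higher there, where 0.95% of all genes were as deposited and 1.05% after rescaling. Ddx47 was the 1 of 43 called lower at GO on both scales, where 2.03% and 1.28% of all genes were. Ranked by rescaled difference among the 46, Ddx41 took places 12, 4 and 10 over the 3 stages, Ddx5 took 17, 22 and 16, and Ddx21 took 26, 41 and 32. The members thus spread over the family, with Ddx41 in its upper part and Ddx21 in its lower part at GO and FGO.

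**Figure D4:**
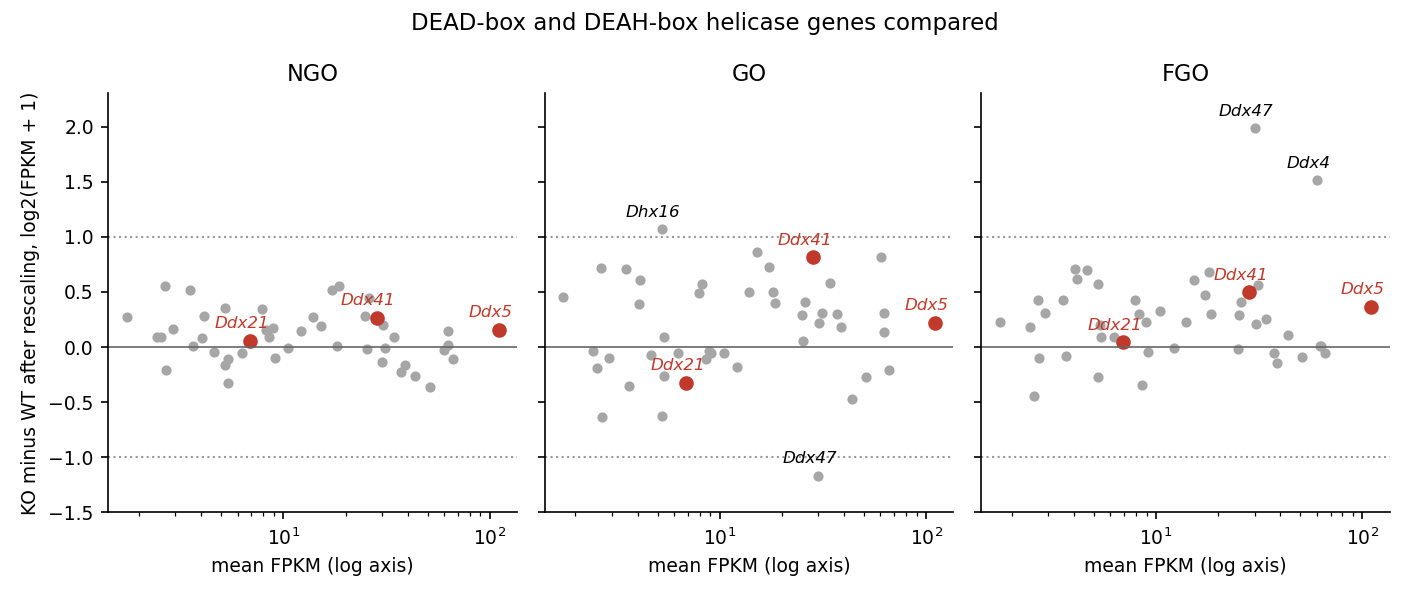
KO minus WT difference of log2(FPKM + 1) after rescaling for the 46 compared genes of the DEAD-box and DEAH-box family at each stage, against the mean FPKM over the 6 columns (log axis), with the members in red and 2-fold limits dotted. Ddx41 lies in the upper part of the family at GO, Ddx5 in the middle and Ddx21 near the bottom.

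For each member, the genes with the most similar profile were taken from 9501 candidates by the root mean square difference of centred log2(FPKM + 1) over the 6 columns. The nearest to Srsf1 was Ndufb10, a subunit of respiratory complex I, at 0.018, then Ccdc85c at 0.040. The nearest to Ddx5 were Rffl, a ubiquitin ligase, at 0.035 and Slc2a1, a glucose transporter, at 0.048. Top1 was nearest to Stt3b, of the oligosaccharyltransferase, at 0.039 and to Senp1, a SUMO protease, at 0.048. Ddx41 lay near Tax1bp1, an autophagy receptor, at 0.044 and Rnps1, a splicing regulator, at 0.058, and Aqr near Clk4 at 0.054. Values for Ddx21 were 0.062 (Rnf125) and 0.064 (Gfod1), and for Xrn2 0.062 (Fam107b) and 0.067 (Tspan14). Top3b had the least similar neighbours, Nup93, a nuclear pore protein, at 0.084 and Eefsec, the selenocysteine elongation factor, at 0.098. Between members, Ddx41 and Top3b were the closest pair at 0.179. The nearest genes are the smallest distances among 9501 candidates, so the distances between members cannot be weighed against them. Dhx9, almost flat on this scale at its low level, was nearest to Ddx17 at 0.074 and Nfix at 0.081. With 6 columns, and most genes following the shared scale of those columns, a small distance is a description only.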

How the data were processed

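Poly(A) RNA of 12 samples, 10 mouse oocytes each, was copied by Smart-seq2, per the labels' protocols, with 100 pg of ERCC spike-in RNA, and read as 150 bp pairs. The submitters' processing notes name Trim Galore 0.6.7, HISAT2 2.2.1, Cufflinks 2.2.1 and mm10. The deposited file holds FPKM values that the authors adjusted to the ERCC spike-in, as the name of the table says. The adjustment formula, the annotation, the strand setting and how 2 samples became 1 column were not stated in these sources. Read counts and depth are therefore unknown, and no interval is given.

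Differences are of log2(FPKM + 1), called at 1 or more in size, over genes averaging 1 FPKM or more across the 6 columns, with KO minus WT and later minus earlier stage. Rescaled values divide each column by the median, over compared genes above 0 in all columns, of its ratio to their geometric mean. Replicates had no columns of their own, so the limma fit that was planned for a column per sample could not be made. Named genes are the 9 members, Rnaseh1, per list and stage the 2 genes with the largest rescaled difference, per member the 2 nearest profiles (1 for Aqr, the other is not reported here), and 7 paralogs or family neighbours (Ddx17, Ddx50, Dhx36, Top1mt, Top3a, Srsf9 and Xrn1). Other genes named (Tdrd3, single markers, and single genes given as calls) were chosen after their values were seen. The members and lists were chosen with earlier results of these data known. Near copies were sought with blastn 2.17.0 at 90% identity or more. Python 3.11.15 with pandas 2.3.3 was used, and the code was tested on simulated data.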

Additional observations from a re-analysis of the deposited data

Results flagged for a closer look

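The KO minus WT difference of Aqr, the intron-binding helicase, changed side between stages. After rescaling it was 0.63 higher at GO (0.41) than at NGO (-0.22) on the log2 scale, and 0.87 higher at FGO (0.65) than at NGO. As deposited these changes were 0.69 and 1.73. With 1 column for a genotype and stage the difference between stages was not tested.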

How the results depend on the processing

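The alternatives were a pseudocount of 0.1, rescaling by median ratio, equal column totals, no filter, a mean of at least 5 FPKM, symbols on 1 line and, chosen after seeing the data, median ratios over genes with transcripts over 2000 bases. Under each of the 3 scalings the count of members called higher was 0 for KO against WT at FGO (5 as deposited), for GO against NGO in KO (7) and in WT (5), and for FGO against GO in KO (2). The Top3b call at GO held in all 7. Of the 56 differences of compared members, the direction turned in 13 by median ratio (3 between KO and WT and 10 stage steps), 16 by equal totals and 13 by long genes, and in 0 under the other 4. Among differences called as deposited, it turned for GO against NGO of Ddx21 in KO (-0.12 by median ratio, -0.11 by equal totals, -0.14 by long genes), Srsf1 in WT (-0.057, -0.026 and -0.080) and Top1 in KO (-0.022 by long genes), and for FGO against GO of Top1 in KO (-0.000865 by equal totals). No paired analysis was possible because the table holds 1 column per genotype and stage, and leaving out a replicate was not run for the same reason.

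Counts over all compared genes moved with the scale as well. For KO against WT at FGO, 2612 genes were higher and 16 lower as deposited, 170 and 95 by median ratio, 233 and 53 by equal totals, and 156 and 113 by long genes, with 25 lower at a pseudocount of 0.1 and 7 lower at a mean of at least 5 FPKM. At GO 96 were higher and 205 lower, with 129 lower by median ratio, 119 by equal totals, and 212 higher and 458 lower at the smaller pseudocount. At NGO 3 were higher and 33 lower, with 13, 19 and 11 higher by the 3 scalings, and 48 higher and 224 lower at the smaller pseudocount. For GO against NGO in KO, 5822 higher and 9 lower became 543 and 262, 560 and 269, and 511 and 285 by the 3 scalings, with 28 lower at the smaller pseudocount and 2 at the stricter mean. In WT the 5540 higher and 13 lower became 613 and 331, 668 and 309, and 600 and 342, with 42 and 3 lower under the same other settings. For FGO against GO in KO, 3946 higher and 52 lower became 649 and 370, 534 and 570, and 680 and 327, with 104 and 25 lower. In WT, 657 higher and 932 lower became 389 higher by equal totals and 362 and 427 at the stricter mean.

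Of the lists at FGO, calls higher in KO under each scaling were 1 for other helicases (6 as deposited), 0 for topoisomerases (2, and 1 at the stricter mean), 0 for SR proteins and kinases (1, with 3 at the smaller pseudocount and 0 at the stricter mean) and 2 for the DEAD-box and DEAH-box family without the members (19). The termination list had 7 as deposited, 0 by either median ratio and 1 by equal totals, and its 1 lower call at GO, Nkrf, was 0 under the 3 scalings and the stricter mean. These counts thus move with the scale, filter or pseudocount chosen, and which scale is nearer to the RNA content of the oocytes was not tested.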
